A study of Mus musculus with 5 samples.

Results

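The genes of glucose uptake, glycolysis, pyruvate handling and the pentose phosphate pathway were followed in mouse embryonic cortical cells in which Ptf1a had been switched on. Of 35 listed genes, 34 had a row of their own under the listed symbol among the 23234 gene rows of the authors' table, and 33 of these carried a test. Eno1 stood only in a row joined with its near-identical copy Gm5506 and is described apart.

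RNA was sequenced from GFP-positive cells that had been purified by fluorescence from the cortex of CD1 mice, electroporated at E12.5 (embryonic age in days) and harvested at E15.5. The Ptf1a group, 3 samples, had received a construct that carries Ptf1a, a basic helix-loop-helix transcription factor, together with GFP, and the GFP-only group, 2 samples, a construct with GFP alone. Each sample pooled 3 to 6 brains, and the labels name neither the promoter of the constructs nor which cells besides the labelled pyramidal cells took them up. Expression is given in FPKM, fragment counts scaled to transcript length and to the size of the library, as 1 value per group merged by the authors, so no value per sample and no SD can be printed, and depth per sample is unknown. Ptf1a itself stood at 38.9 FPKM in the Ptf1a group, against 0.210 FPKM in the GFP-only group. In the Ptf1a group, reads of the construct and of the endogenous gene cannot be told apart.

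Glycolysis splits glucose into pyruvate in the cytosol. Pyruvate is then either reduced to lactate and exported or oxidised by the pyruvate dehydrogenase complex in mitochondria, while the pentose phosphate pathway branches off at glucose-6-phosphate to yield NADPH and ribose. Many steps are served by isoenzymes encoded by separate genes, and in the brain these isoenzymes are distributed unequally between neurons, glia and dividing progenitors.

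A rise or a fall means that the authors' test (Cuffdiff) gave a q-value under 0.05 over all tested genes, and differences are log2(FPKM + 0.1) in the Ptf1a group minus that in the GFP-only group. The error beside a difference is a standard error implied by the authors' deposited table, its log2 fold divided by its test statistic. That fold carries no pseudocount, so for weak genes it lies further from 0 than the difference printed here.

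For most of the pathway no difference was called. Of the 33 tested genes, 3 rose (Aldoc, Hk2 and Slc16a1), 8 fell (Slc2a3, Hk1, Pfkfb3, Tpi1, Gapdh, Pdk1, Tkt and Taldo1) and 22 were not called. The share called, 33.3%, was close to the 37.7% called among all 11876 tested genes. Falls made up 24.2% of the tested pathway genes, against 19.1% of all tested genes, and rises 9.09%, against 18.7%. The median difference over the 33 genes was -0.10, against -0.01 over all tested genes, and 4 of the 33 (12.1%) differed at least 1.5-fold in either direction, against 2965 of the 11876 tested genes. The calls rest on the authors' q-values: with a normal p taken from their test statistic and adjusted over all genes, 6.1% of all tested genes passed and Aldoc was the only one of the 33.

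**Figure D1:**
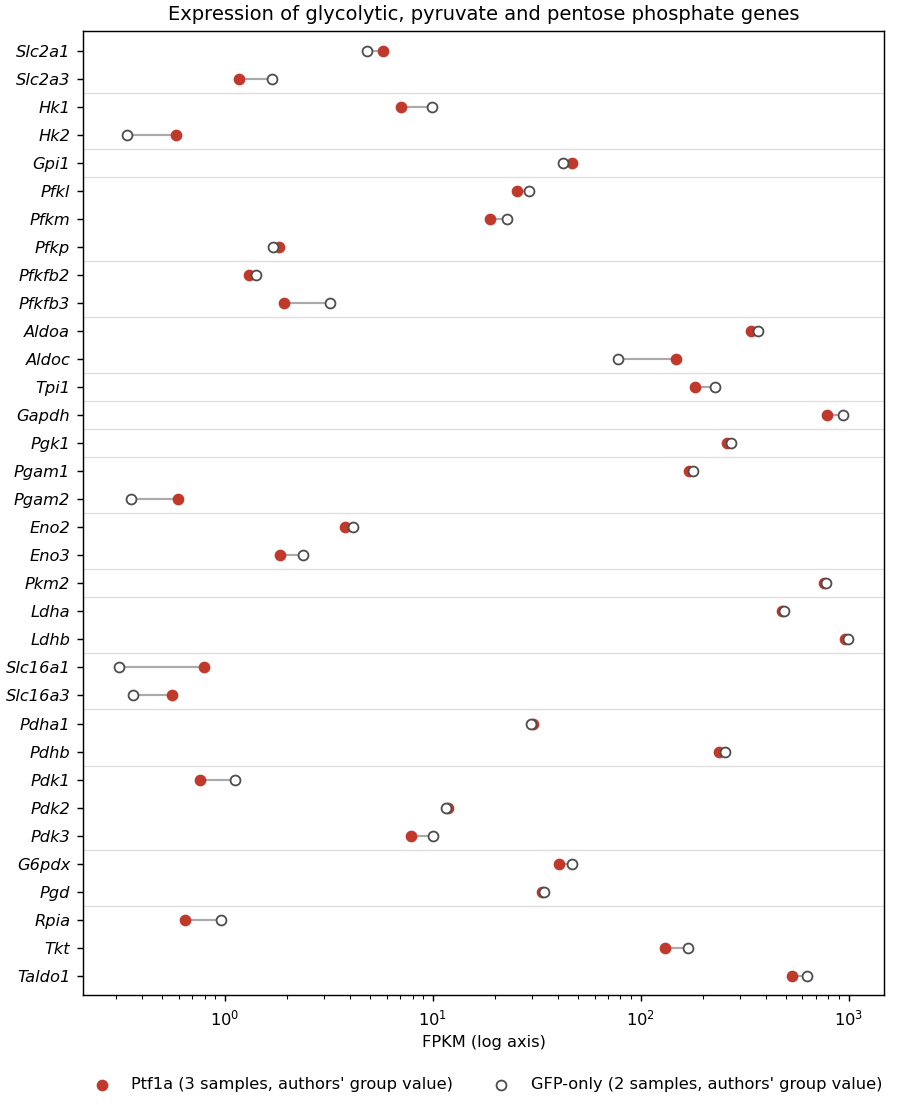
Authors' group value of each gene in FPKM on a log axis, for the Ptf1a group (filled) and the GFP-only group (open), ordered along the pathway with thin lines between steps. The abundant glycolytic enzymes lie nearly on top of each other in both groups, while Aldoc stands at 148 FPKM in the Ptf1a group, against 77.9 FPKM in the GFP-only group.

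Aldolase, which splits fructose-1,6-bisphosphate into 2 triose phosphates, held the difference that was largest relative to its error. Aldoc, the brain form of the enzyme and in the adult brain a product of astrocytes and Purkinje cells, had 148 FPKM in the Ptf1a group, against 77.9 FPKM in the GFP-only group. Its difference was 0.93 with an implied standard error of 0.21, and q = 0.000329 in the authors' deposited table. Aldoa, the widely expressed form, had 341 FPKM in the Ptf1a group, against 369 FPKM in the GFP-only group, and was not called. Aldoc thus supplied 30.3% of the summed aldolase FPKM in the Ptf1a group, against 17.4% in the GFP-only group. The differences of Aldoc and Aldoa lay 1.04 apart, with a combined error of 0.31 if their errors are taken as independent. Among 15 pairs of isoenzymes compared in this way, with no p computed, this was the only pair that lay more than 2 combined errors apart. The Aldoc locus spans chromosome 11, 78137700 to 78140262 on mm9.

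Aldoc, Hk1, Tkt and Tpi1 were the called genes with at least 5 FPKM that moved furthest in each direction, counting up to 3 per direction, and the RefSeq promoter windows of these genes are shown for this reason. Each window runs from 250 bases before to 50 bases after an annotated start on GRCm38.p6, printed on the gene's own strand. Capitals mark every match, on either strand, to ACGTG or GCGTG (the cores of the hypoxia response element), CANNTG (the E-box bound by basic helix-loop-helix factors) and TGGGAA (a core bound by Rbpj, the partner of Ptf1a).
Aldoc, first start, chr11:78322823-78323122, plus strand: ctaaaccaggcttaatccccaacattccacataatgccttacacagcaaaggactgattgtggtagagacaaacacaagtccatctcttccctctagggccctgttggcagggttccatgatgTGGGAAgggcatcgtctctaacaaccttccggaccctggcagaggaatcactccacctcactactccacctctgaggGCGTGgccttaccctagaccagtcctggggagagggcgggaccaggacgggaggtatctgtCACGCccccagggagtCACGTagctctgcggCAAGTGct
Aldoc, second start, chr11:78323948-78324247, plus strand: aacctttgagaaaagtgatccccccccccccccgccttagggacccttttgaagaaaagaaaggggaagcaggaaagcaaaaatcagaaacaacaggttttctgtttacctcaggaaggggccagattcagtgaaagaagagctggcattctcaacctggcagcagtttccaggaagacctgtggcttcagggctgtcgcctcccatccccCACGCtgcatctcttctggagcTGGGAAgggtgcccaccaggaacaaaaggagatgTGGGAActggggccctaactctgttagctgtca
Hk1, upstream start, chr10:62379859-62380158, minus strand: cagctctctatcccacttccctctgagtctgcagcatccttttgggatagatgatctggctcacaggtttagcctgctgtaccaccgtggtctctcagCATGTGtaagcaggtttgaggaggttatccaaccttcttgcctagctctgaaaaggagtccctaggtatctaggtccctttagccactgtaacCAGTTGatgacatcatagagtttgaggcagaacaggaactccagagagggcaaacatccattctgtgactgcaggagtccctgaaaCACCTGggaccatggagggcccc
Hk1, downstream start, chr10:62340372-62340671, minus strand: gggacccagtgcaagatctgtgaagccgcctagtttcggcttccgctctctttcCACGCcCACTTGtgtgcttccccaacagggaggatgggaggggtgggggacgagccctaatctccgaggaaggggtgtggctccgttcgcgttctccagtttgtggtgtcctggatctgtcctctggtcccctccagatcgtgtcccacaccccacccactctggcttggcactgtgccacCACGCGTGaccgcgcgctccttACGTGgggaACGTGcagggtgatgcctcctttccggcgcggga
Tkt, chr14:30548881-30549180, plus strand: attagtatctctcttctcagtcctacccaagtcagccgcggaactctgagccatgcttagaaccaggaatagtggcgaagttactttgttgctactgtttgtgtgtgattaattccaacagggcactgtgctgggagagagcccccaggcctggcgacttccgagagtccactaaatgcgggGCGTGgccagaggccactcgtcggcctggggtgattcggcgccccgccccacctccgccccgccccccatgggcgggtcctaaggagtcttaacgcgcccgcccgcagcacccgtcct
Tpi1, chr6:124814109-124814408, minus strand: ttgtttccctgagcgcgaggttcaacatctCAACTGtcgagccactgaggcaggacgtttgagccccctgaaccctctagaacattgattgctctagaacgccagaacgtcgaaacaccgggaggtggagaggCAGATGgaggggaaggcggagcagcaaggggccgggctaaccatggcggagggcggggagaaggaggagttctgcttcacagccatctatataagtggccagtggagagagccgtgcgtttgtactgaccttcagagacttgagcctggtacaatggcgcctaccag
The first Aldoc window held 1 ACGTG, 2 GCGTG, 1 CANNTG and 1 TGGGAA match, and the second held 1 GCGTG and 2 TGGGAA matches. The upstream Hk1 window held 3 CANNTG matches and no other, whereas the downstream one held 2 ACGTG, 3 GCGTG and 1 CANNTG match, with GCGTG read on both strands of the same CACGCGTG. Tkt had 1 GCGTG match and Tpi1 2 CANNTG matches. Over all 32851 windows of this length, 19.6% held ACGTG, 32.4% GCGTG, 72.3% CANNTG and 25.6% TGGGAA. The 51 windows of 34 listed genes, here with Eno1 and without Slc2a3, held them in 45.1%, 58.8%, 64.7% and 23.5%. These windows were richer in G and C, with a median of 60.7%, against 52.7% over all windows. Which start these cells used was not measured, and a match is only a run of letters.

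Glucose entry and trapping showed opposite signs between isoforms at low levels. Slc2a1 (GLUT1), the glucose transporter of the blood-brain barrier and glia, had 5.76 FPKM in the Ptf1a group, against 4.84 FPKM in the GFP-only group, and was not called. Slc2a3 (GLUT3), the neuronal transporter, fell to 1.17 FPKM in the Ptf1a group, against 1.68 FPKM in the GFP-only group, with q = 0.0476 in the authors' deposited table, just inside the threshold. Slc2a1 accounted for 83.2% of the summed FPKM of the pair in the Ptf1a group and 74.2% in the GFP-only group. Their differences lay 0.74 apart with a combined error of 0.58.

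Hexokinase phosphorylates glucose and so traps it in the cell. Hk1, the main brain form, fell to 7.01 FPKM in the Ptf1a group, against 9.90 FPKM in the GFP-only group, a difference of -0.49 with an implied standard error of 0.28 and q = 0.000874 in the authors' deposited table. Its locus, chromosome 10, 61731603 to 61842656 on mm9, also holds the row of 2210417K05Rik, so overlapping reads may be split between them. Hk2, the inducible form found in muscle and in many dividing cells, rose to 0.581 FPKM in the Ptf1a group, against 0.340 FPKM in the GFP-only group, with q = 0.0343 in the authors' deposited table. Even so Hk1 supplied 92.4% of the summed FPKM of the pair in the Ptf1a group and 96.7% in the GFP-only group. Other hexokinase genes were not counted in this share. The pair lay 1.12 apart with a combined error of 0.69.

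The steps between hexokinase and aldolase held no called gene among the listed ones. Gpi1, which converts glucose-6-phosphate to fructose-6-phosphate, had 46.6 FPKM in the Ptf1a group, against 42.2 FPKM in the GFP-only group. Of the phosphofructokinases, which catalyse the committed step, Pfkl had 25.5 FPKM in the Ptf1a group, against 29.0 FPKM in the GFP-only group, while Pfkm had 18.9 FPKM in the Ptf1a group, against 22.8 FPKM in the GFP-only group. Pfkp was weaker, with 1.83 FPKM in the Ptf1a group and 1.70 FPKM in the GFP-only group. Pfkm differed by -0.27, with q = 0.0782 in the authors' deposited table, outside the threshold. None of these 4 genes was called, with implied standard errors of 0.23 for Gpi1 and Pfkl, 0.28 for Pfkm and 0.75 for Pfkp. The phosphofructokinase make-up was correspondingly similar, with Pfkl at 55.2% of the summed FPKM in the Ptf1a group and 54.1% in the GFP-only group.

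Fructose-2,6-bisphosphate, the strongest activator of phosphofructokinase, is made by the bifunctional Pfkfb enzymes. Pfkfb3, the form with the highest ratio of kinase to phosphatase activity, fell to 1.93 FPKM in the Ptf1a group, against 3.19 FPKM in the GFP-only group, a difference of -0.70 with an implied standard error of 0.39 and q = 0.000329 in the authors' deposited table. This was the largest fall among the 33 genes. Pfkfb2, the heart form, had 1.31 FPKM in the Ptf1a group, against 1.42 FPKM in the GFP-only group, and was not called. The Pfkfb3 locus lies on chromosome 2, 11393058 to 11475556 on mm9.

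**Figure D2:**
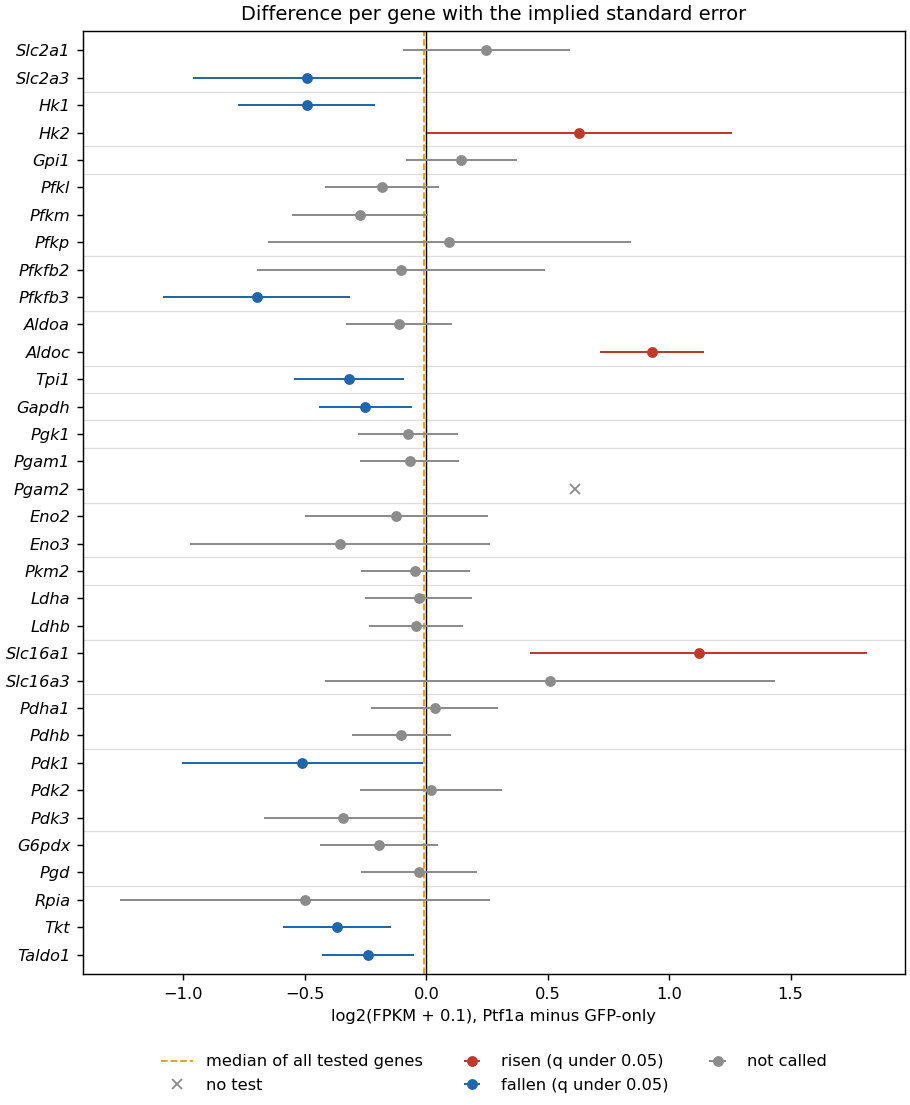
Difference of each gene in log2(FPKM + 0.1), Ptf1a minus GFP-only, along the pathway; bars show 1 implied standard error on each side, colours the authors' calls, and the dashed line the median of all tested genes (-0.01). Aldoc is the only called gene whose distance from 0 is more than 4 times its bar. The bars of Hk2, Slc2a3 and Pdk1 reach almost to 0. They belong to the deposited folds without a pseudocount, which lie further from 0 (0.77, -0.53 and -0.57).

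The triose and payoff steps held several of the most abundant transcripts. Tpi1, which interconverts the triose phosphates, had 183 FPKM in the Ptf1a group, against 229 FPKM in the GFP-only group, a difference of -0.32 and called as a fall, but 0.0022 when set against the median of the genes of like abundance. Gapdh, the oxidising step and a common reference gene, had 787 FPKM in the Ptf1a group, against 937 FPKM in the GFP-only group, a called fall with a difference of -0.25 that becomes 0.069 against genes of like abundance. Pgk1, the first ATP-forming step, had 259 FPKM in the Ptf1a group and 273 FPKM in the GFP-only group. Pgam1, which moves the phosphate group before enolase acts, had 171 FPKM in the Ptf1a group and 179 FPKM in the GFP-only group. Pkm2, the gene of muscle pyruvate kinase now named Pkm, had 758 FPKM in the Ptf1a group and 782 FPKM in the GFP-only group. These 3 genes were not called, with differences from -0.08 to -0.04 and implied standard errors from 0.21 to 0.22. The M1 and M2 splice forms of pyruvate kinase, which separate adult from proliferating tissue, share this gene row and cannot be told apart here. Pgam2, the muscle mutase, had 0.594 FPKM in the Ptf1a group and 0.354 FPKM in the GFP-only group in a row without a test. Tpi1 shares its locus with Spsb2, and abundant glycolytic genes have processed pseudogenes whose reads the authors' counting may have split.

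Enolase was dominated by Eno1. Its joint row with Gm5506 stood at 430 FPKM in the Ptf1a group and 487 FPKM in the GFP-only group and was not called. A second row at the same locus on chromosome 4, under Gm5506 alone (Eno1b in RefSeq), stood at 85.9 FPKM in the Ptf1a group and 101.6 FPKM in the GFP-only group and was not called either. Eno2, the neuron-specific enolase, had 3.81 FPKM in the Ptf1a group and 4.16 FPKM in the GFP-only group, and Eno3, the muscle form, 1.85 FPKM in the Ptf1a group and 2.39 FPKM in the GFP-only group, with neither called. Eno2 supplied 0.875% of enolase FPKM in the Ptf1a group and 0.842% in the GFP-only group.

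Lactate dehydrogenase, the branch point to lactate, had the smallest gap between isoenzymes of the 15 pairs. Ldhb, the form that favours lactate oxidation and the most abundant of the 34 genes, had 964 FPKM in the Ptf1a group, against 993 FPKM in the GFP-only group. Ldha, the form that favours lactate production, had 479 FPKM in the Ptf1a group, against 489 FPKM in the GFP-only group. Neither was called, with differences of -0.04 and -0.03 and implied standard errors of 0.19 and 0.22. Ldha made up 33.2% of the summed FPKM in the Ptf1a group and 33.0% in the GFP-only group, and the pair's differences lay 0.01 apart with a combined error of 0.29.

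Lactate export and import run through proton-coupled monocarboxylate transporters. Slc16a1 (MCT1) rose to 0.796 FPKM in the Ptf1a group, against 0.312 FPKM in the GFP-only group, a difference of 1.12 with an implied standard error of 0.69 and q = 0.00137 in the authors' deposited table. Slc16a3 (MCT4), the export form induced by low oxygen, had 0.558 FPKM in the Ptf1a group and 0.362 FPKM in the GFP-only group and was not called. Both transporters stayed under 1 FPKM in both groups, where the implied errors were among the widest and the pseudocount weighs most. With a pseudocount of 1 the difference of Slc16a1 was 0.45, against 0.92 for Aldoc. The Slc16a1 locus spans chromosome 3, 104442591 to 104462385 on mm9.

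**Figure D3:**
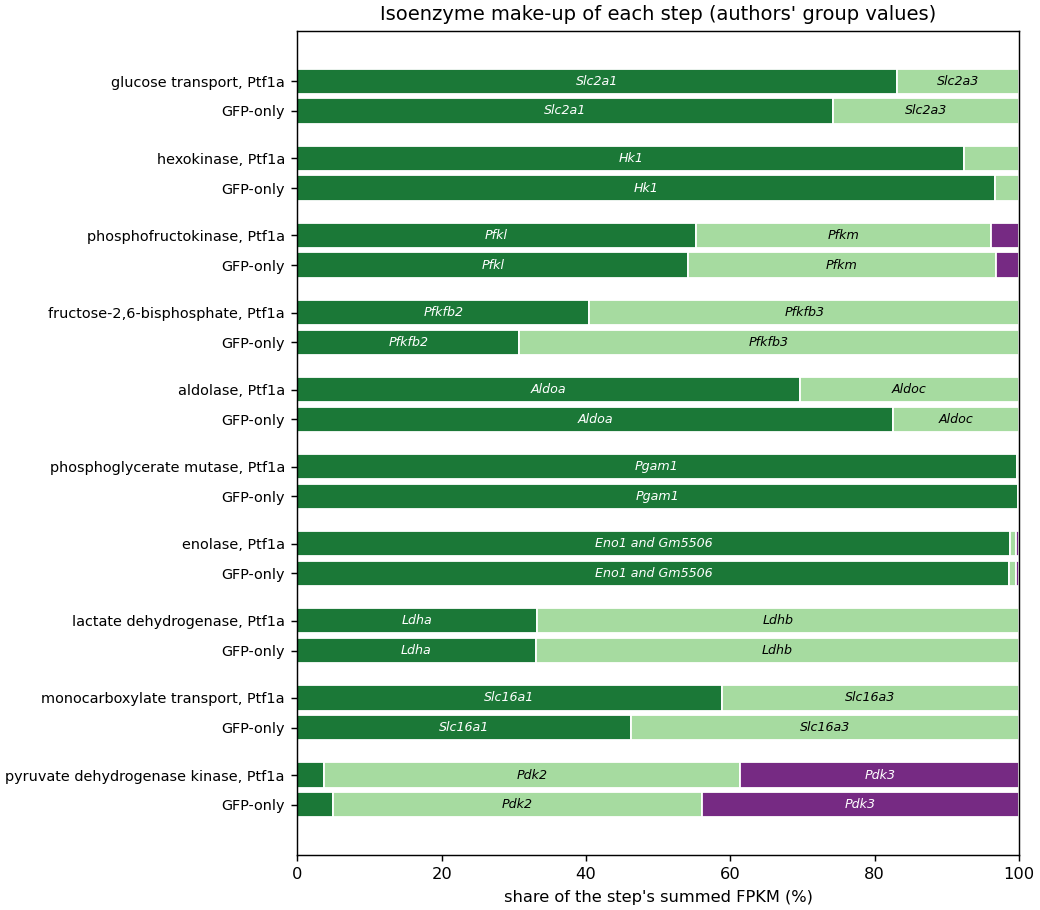
Share of the summed FPKM of each step's listed genes supplied by each isoenzyme, in percent, with the Ptf1a bar above the GFP-only bar. Unlabelled slices at the right are Hk2, Pfkp, Pgam2, and Eno2 with Eno3, and the left slice of the kinases is Pdk1. Genes outside the list, such as Slc16a7 in monocarboxylate transport and Pfkfb1 and Pfkfb4, are not in the sums. The Aldoc slice widens to 30.3% in the Ptf1a group, against 17.4% in the GFP-only group, while the lactate dehydrogenase and phosphofructokinase bars are almost identical.

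Pyruvate dehydrogenase commits pyruvate to mitochondrial oxidation, and the Pdk kinases switch it off by phosphorylation. The subunit genes were not called: Pdha1 had 30.4 FPKM in the Ptf1a group and 29.6 FPKM in the GFP-only group, and Pdhb 237 FPKM in the Ptf1a group and 255 FPKM in the GFP-only group. Pdk1, the kinase induced by low oxygen, fell to 0.759 FPKM in the Ptf1a group, against 1.12 FPKM in the GFP-only group, with q = 0.0388 in the authors' deposited table. Pdk2, the most abundant kinase, had 11.8 FPKM in the Ptf1a group and 11.6 FPKM in the GFP-only group and was not called. Pdk3 had 7.89 FPKM in the Ptf1a group and 10.0 FPKM in the GFP-only group. Its q was 0.0656 in the authors' deposited table, just outside the threshold.

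In the pentose phosphate pathway, falls were called in both arms, counting the oxidative lactonase Pgls, which is not among the 35 listed genes and fell with a difference of -0.60. The NADPH-producing enzymes were not called: G6pdx, the first and limiting step, had 40.6 FPKM in the Ptf1a group and 46.5 FPKM in the GFP-only group, and Pgd 33.6 FPKM in the Ptf1a group and 34.4 FPKM in the GFP-only group. Of the sugar-rearranging enzymes, Tkt (transketolase) fell to 131 FPKM in the Ptf1a group, against 169 FPKM in the GFP-only group, a difference of -0.37 with an implied standard error of 0.22 and q = 0.00249 in the authors' deposited table. Against genes of like abundance its difference was -0.048. The Tkt locus also holds another row, so overlapping reads may be split. Taldo1 (transaldolase) had 535 FPKM in the Ptf1a group, against 632 FPKM in the GFP-only group, a called fall with a difference of -0.24 that becomes 0.080 against genes of like abundance. Rpia, which makes ribose-5-phosphate, had 0.648 FPKM in the Ptf1a group and 0.956 FPKM in the GFP-only group and was not called.

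Abundance moved with the groups across the whole table, and this touches the pathway because 12 of its 33 tested genes lie in the highest of 10 equal bins of mean FPKM. In that bin 58.2% of the 1188 tested genes fell and 3.79% rose, with a median difference of -0.32. Of the 12 pathway genes there, 4 fell (Tpi1, Gapdh, Tkt and Taldo1), 1 rose (Aldoc) and 7 were not called, with a median difference of -0.09. Aldoa, Pgk1, Pgam1, Pkm2, Ldha, Ldhb and Pdhb, the 7 uncalled ones, thus stood between 0.21 and 0.29 above the median of the bin. Below the highest bin, 4 of 21 pathway genes fell and 2 rose, where 14.7% of the 10688 genes fell and 20.3% rose. Both rises, Hk2 and Slc16a1, lay in the lowest bin, where 30.8% of the 1187 tested genes rose and the median difference was 0.47. Against that median the difference of Hk2 was 0.16 and that of Slc16a1 0.66. Subtracting the median of its own bin from each gene gave a median of 0.069 over the 33 genes, in place of -0.10. The 11 called genes then divided into 6 above and 5 below 0, in place of 3 and 8. What the shift with abundance comes from was not tested.

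**Figure D4:**
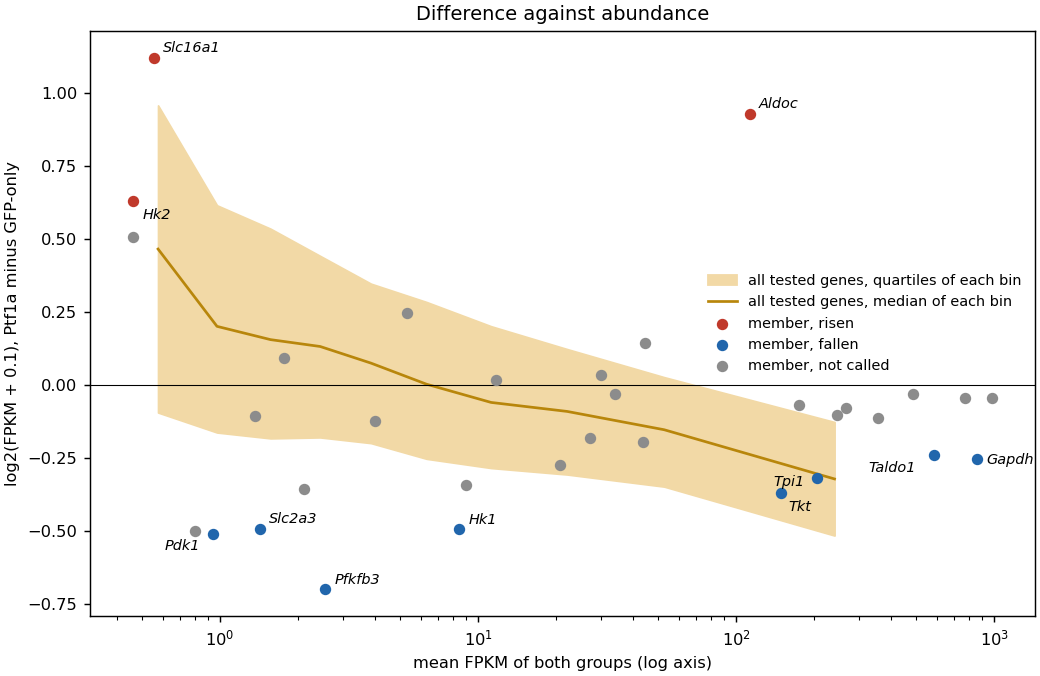
Difference of each tested pathway gene (points, coloured by the authors' call) against its mean FPKM on a log axis, over the median and quartiles of all tested genes in 10 equal bins of mean FPKM, drawn at each bin's median abundance. The background slopes down to -0.32 in the highest bin; most abundant pathway genes lie above it, Tpi1 on it, Tkt just below it and Aldoc far above it.

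Markers of cell state moved beside these values. All 10 radial glia and progenitor markers rose, with a summed level of 3556 FPKM in the Ptf1a group, against 1828 FPKM in the GFP-only group. All 10 also passed by the normal p. All 8 tested neuronal markers fell, 3 of them also by the normal p, with a summed level of 2649 FPKM in the Ptf1a group, against 4435 FPKM in the GFP-only group, leaving out Tubb3, listed at 0 in the GFP-only group in a row marked as having too much data. The pyramidal lineage factor Neurod6 was nevertheless present at 1190 FPKM in the Ptf1a group and 1717 FPKM in the GFP-only group. Of the astrocyte markers Aldh1l1 rose, Gja1 was not called and Gfap stood at 0.182 FPKM in the Ptf1a group and was listed at 0 in the GFP-only group. In pooled cells, a change in the number of cells of a type and a change in RNA per cell cannot be told apart, and the part of these markers in the differences of Aldoc, Hk2, Slc16a1, Slc2a3 and Hk1 was not tested.

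Cells that might have been carried through the sort were also examined, since Slc2a1 and Slc16a1 are well expressed by endothelium and Slc2a1 by red blood cells. The 6 endothelial markers summed to 4.48 FPKM in the Ptf1a group and 3.26 FPKM in the GFP-only group, nearly all of it Cldn5, which was not called, and Pecam1, Cdh5, Kdr, Flt1 and Tek were each at or below 0.205 FPKM in both groups. Of 6 tested red blood cell genes 3 fell, with a sum of 62.7 FPKM in the Ptf1a group, against 150.2 FPKM in the GFP-only group, and Hbb-bh1 was listed at 0 in both. Of 4 tested microglial genes 1 fell, with a sum of 9.24 FPKM in the Ptf1a group, against 14.6 FPKM in the GFP-only group. Of 4 tested pericyte and meningeal genes 2 rose and 1 fell, with a sum of 5.18 FPKM in the Ptf1a group and 4.60 FPKM in the GFP-only group. Over all tested genes 19.1% fell and 18.7% rose. The part of these cells in the results was not tested.

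The remaining genes of the pathway, 52 in number of which 31 were tested, gave 4 rises and 8 falls with a median difference of -0.10. The share called, 38.7%, was close to the 37.7% of all tested genes. The most abundant of the fallen genes was a subunit of the mitochondrial pyruvate carrier. Brp44l (Mpc1) fell to 517 FPKM in the Ptf1a group, against 742 FPKM in the GFP-only group, and Brp44 (Mpc2) to 192 FPKM in the Ptf1a group, against 264 FPKM in the GFP-only group. On the log2 scale they fell by 0.52 and 0.46, and both stayed below the median of genes of like abundance. Pdp1, a phosphatase that reactivates pyruvate dehydrogenase, fell to 5.57 FPKM in the Ptf1a group, against 8.42 FPKM in the GFP-only group. Its paralog Pdp2 rose to 4.43 FPKM in the Ptf1a group, against 3.00 FPKM in the GFP-only group. Dld, Pdhx and Dlat, further subunits of the complex, were not called.

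In upper glycolysis Pfkfb1, the liver Pfkfb form, fell to 0.996 FPKM in the Ptf1a group, against 2.58 FPKM in the GFP-only group. The row under Pgm1, on chromosome 5 at 64484189 to 64519397 on mm9, rose to 12.9 FPKM in the Ptf1a group, against 8.76 FPKM in the GFP-only group. Galm, which interconverts the anomers of sugars, rose to 0.857 FPKM in the Ptf1a group, against 0.196 FPKM in the GFP-only group. The row under Pgm2, on chromosome 4, had 10.5 FPKM in the Ptf1a group, against 12.9 FPKM in the GFP-only group, and was not called. Which current gene the phosphoglucomutase symbols Pgm1 and Pgm2 each stand for was not resolved here. Pgm2l1 and Pfkfb4 were not called. Tigar, listed as 9630033F20Rik and chosen after its value was seen, fell to 3.55 FPKM in the Ptf1a group, against 4.78 FPKM in the GFP-only group.

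Pgls, the lactonase between G6pdx and Pgd, fell to 147 FPKM in the Ptf1a group, against 224 FPKM in the GFP-only group, a difference of -0.60. Rpe, Prps1 and Prps2 were not called. Bsg, the chaperone of the monocarboxylate transporters, had 231 FPKM in the Ptf1a group and 283 FPKM in the GFP-only group, a called fall with a difference of -0.29 that is 0.033 against genes of like abundance, and Slc2a8, Emb and Slc2a6 were not called. Pck2, the mitochondrial enzyme that makes phosphoenolpyruvate, rose to 4.33 FPKM in the Ptf1a group, against 2.62 FPKM in the GFP-only group, while G6pc3 and Pcx were not called. Neither Bpgm nor Gapdhs, the tested genes of lower glycolysis, was called by Cuffdiff, by its unadjusted p under 0.05 or by the normal p.

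Downstream, 0 of 13 tricarboxylic acid cycle genes were called by Cuffdiff, 2 had an unadjusted p under 0.05 and 0 passed by the normal p. Over all tested genes Cuffdiff called 37.7% and the normal p 6.1%. Mdh2, the most abundant, had 931 FPKM in the Ptf1a group, against 1052 FPKM in the GFP-only group. Idh3g had 169.7 FPKM in the Ptf1a group, against 170.4 FPKM in the GFP-only group. The list's median difference was -0.08, beside -0.01 over all tested genes.

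Low oxygen is a known inducer of glycolytic genes through the factor Hif1a, so its other targets were set beside them. Of 15 tested hypoxia-response genes outside glycolysis, 3 rose and 2 fell, with a median difference of -0.04. The share called, 33.3%, was again near the 37.7% of all tested genes. Egln3, a prolyl hydroxylase that marks Hif1a for destruction, rose to 4.39 FPKM in the Ptf1a group, against 0.768 FPKM in the GFP-only group, and the collagen hydroxylase subunits P4ha1 and P4ha2 rose with differences of 0.63 and 0.66. Ndrg1 fell to 15.1 FPKM in the Ptf1a group, against 24.3 FPKM in the GFP-only group. Bnip3, Bnip3l and Higd1a were not called. Hif1a itself, chosen after its value was seen, had 5.01 FPKM in the Ptf1a group and 4.64 FPKM in the GFP-only group and was not called. Its partner Arnt rose to 1.47 FPKM in the Ptf1a group, against 0.780 FPKM in the GFP-only group. Mycn and Myc, activators of growth and glycolytic genes, both fell, Mycn to 12.8 FPKM in the Ptf1a group, against 19.9 FPKM in the GFP-only group, and Myc to 7.56 FPKM in the Ptf1a group, against 10.2 FPKM in the GFP-only group. Usf1, Vhl and Usf2 were not called. Of the called genes named from these further pathway, cycle, hypoxia and factor lists, Pgls and Egln3 also passed by the normal p.

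By position, 4 of the genes lie close together on chromosome 6. Slc2a3, Eno2, Tpi1 and Gapdh fall within 122677827 to 125115601 on mm9, with 39431 bases between Eno2 and Tpi1, and 3 of them fell while Eno2 was not called. Over that stretch 6 of 28 tested genes fell (21.4%), these 3 included, and 2 rose (7.14%). The stretch was picked after the values were seen. The 4 X-linked genes, Pgk1, Pdk3, Pdha1 and G6pdx, gave 0 calls by Cuffdiff, 1 with an unadjusted p under 0.05 and 0 by the normal p, where 36% of the 411 tested X-linked genes were called.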

How the data were processed

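The authors processed the reads on mm9 with TopHat2 2.0.8 for alignment, Cufflinks 2.1.1, Cuffdiff, and CASAVA 1.8.2, per the submitters' processing notes; the Cuffdiff version, the annotation and the treatment of multiply mapped reads are not given in the sources used here. Libraries were amplified from 2.1 to 7.8 ng of total RNA, per the labels' protocols. Whether this added variation for weak genes could not be measured from group values. The deposited table gives 1 FPKM value per group and gene, the log2 fold, a signed test statistic (a score), a p-value and a q-value, per the file headers. The column headed PIG was read as the Ptf1a group, the other heading being GFP. Of 23234 rows, 11876 carried a test. No values per sample were analysed here, so a difference cannot be set against the spread between samples except through the authors' test. The deposited p-values differ from the normal p of the deposited test statistic. By the deposited q 37.7% of all tested genes passed, and by the adjusted normal p 6.1%. How far the deposited p-values measure the spread between these pooled samples was not tested.

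The 34 rows were found by exact symbol. Differences used a pseudocount of 0.1 FPKM, which understates the change of weak genes. The 10 equal bins of mean FPKM were cut over all tested genes. Implied standard errors, isoenzyme shares and promoter matches were computed with Python 3.11.15, pandas 2.3.3 and scipy 1.17.1. The code of the calling and error steps was run on simulated data. The simulated p-values were normal p of the simulated test statistic, so that run does not test the deposited Cuffdiff calls. Recomputed Benjamini-Hochberg values over tested genes matched the deposited q within 5.2e-07. Members and lists were chosen with earlier results of these data known. All members are named, and of each further pathway list up to 4 called genes with the largest difference and up to 3 uncalled genes with the highest mean FPKM; 1 gene that this rule names is not reported here. Loci are those of the authors' table with the start raised by 1 to count from 1. Alternatives covered the q threshold, minimum fold and FPKM, the pseudocount, centring, joint rows and shared loci.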

Additional observations from a re-analysis of the deposited data

How the results depend on the processing

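No paired analysis was possible because the table holds merged group values only, and for the same reason no sample could be left out. The 3 rises and 8 falls among the pathway genes depended on how calls were made. With a normal p from the deposited test statistic, 1 rose and 0 fell, the unadjusted normal p being under 0.05 for 1 gene, and among the 31 other pathway genes 0 rose and 2 fell. A q under 0.01 left 4 falls, losing Slc2a3, Gapdh, Pdk1 and Taldo1, and the rise of Hk2. Requiring a 1.5-fold difference left 1 fall, Pfkfb3, and 2 rises and 4 falls among the other pathway genes. At 1 FPKM or more 1 rose, and at 5 FPKM or more 1 rose and 5 fell, with 1 rise among the other genes, since weak genes are then left out. Without genes whose locus holds another row, chosen after seeing the data, 5 fell, losing Hk1, Tpi1 and Tkt.

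Centring within 10 bins of abundance gave 6 positive and 5 negative called genes and turned the median to 0.069. It reversed Gapdh (0.069), Taldo1 (0.080) and Tpi1 (0.0022) among called genes, and Aldoa (0.21), Ldha (0.29), Ldhb (0.28), Pdhb (0.22), Pgam1 (0.25), Pgd (0.12), Pgk1 (0.24), Pkm2 (0.28) and Pfkp (-0.062) among uncalled ones. A q under 0.1, both other pseudocounts (1 and 0.01), centring on all tested genes, and leaving out or adding joint rows kept these counts within 1.5 times. Depth per sample is unknown, so what genes under 1 FPKM can show is limited by the implied errors, up to 0.93.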
